A study of Mus musculus with 6 samples.

Results

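Chemokines and their receptors were followed in epididymal white adipose tissue (WAT) of mice after timed sleep restriction (TSR). The members were all probe sets of the array annotated to exactly 1 gene whose symbol begins with Ccl, Cxcl, Xcl, Cx3cl, Ccr, Cxcr, Cx3cr, Ackr or Ccrl and ends in a number. They came to 69 probe sets for 51 genes, 31 ligands and 20 receptors, out of 12393 genes measured by a probe set with 1 symbol. The 3 TSR samples came from C57BL/6 mice kept awake by gentle handling for 6 h at the start of the light phase on 5 successive days, and the 3 control samples from C57BL/6 mice left undisturbed. All were young adult wild-type males, and tissue was taken at ZT18, in the middle of the dark phase, on the last day for the TSR mice. Each sample was hybridised to 1 Affymetrix mouse array, and nothing in the labels or the paper says whether an array held 1 animal or a pool, so a p-value here speaks only of the spread among these 6 arrays, which may be technical.

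Chemokines are small secreted proteins that guide leukocytes along a gradient. CC and CXC ligands are named after the spacing of their first cysteines, and act through G protein-coupled receptors on the migrating cell. Atypical receptors bind the same ligands without G protein signalling, and thereby store, transport or clear them. In adipose tissue, ligands such as CCL2 are known for recruiting CCR2-bearing monocytes, which become resident macrophages.

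The deposited values are MAS5 signals, linear intensities that the authors had scaled to one target, so that the trimmed mean of an array was 500.2 on all 6. The 25th percentile of an array lay between 20.9 and 25.3 and the 35th between 42.7 and 49.5. Probe sets were compared only when their mean log2 signal was above the lowest 35%, and are called near background otherwise. Of the 51 member genes 25 passed this filter by their brightest probe set, which stands for the gene, and 26 did not. In 4 of the 25, namely Ccl7, Ccl17, Cxcl10 and Cxcr4, the arrays of one group all lay below the 35th percentile. These 4 genes passed the filter through the group in which they were high, so that counts are also given without them.

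Most of the chemokine ligands that could be tested in WAT were lower after TSR, among them Ccl8, Ccl6, Ccl9 and Cxcl9, as were the receptor genes Ccr1 and Ccr2. In limma with Benjamini-Hochberg adjustment over all 14707 probe sets tested, 13 of 18 tested ligand genes were lower, 0 were higher and 5 did not pass. Among all 8619 genes tested, 23.0% were lower and 24.0% were higher. Without Ccl7, Ccl17 and Cxcl10, 10 of 15 ligands were lower, against 22.8% of the 8516 genes left when all genes with such a dim group are taken out. A fall of at least 2-fold was found for 9 ligands and 1 receptor, against 1.40% of all genes tested, and without the dim genes for 6 ligands and 1 receptor, against 1.24%. Receptors went in both directions, with 4 of 7 tested genes lower, 2 higher and 1 not passing. Without Cxcr4, 4 of 6 receptors were lower and 1 was higher, against 23.8% of genes higher. The median log2 fold change was -0.99 over the tested ligands, -0.76 over the tested receptors and 0.01 over all genes tested, and -0.74 over the 15 ligands and -0.80 over the 6 receptors without a dim group. Relative to the control mean, the median log2 signal of the ligands was -1.08, -1.02 and -0.83 in the TSR arrays, and between -0.05 and 0.04 in the control arrays.

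**Figure D1:**
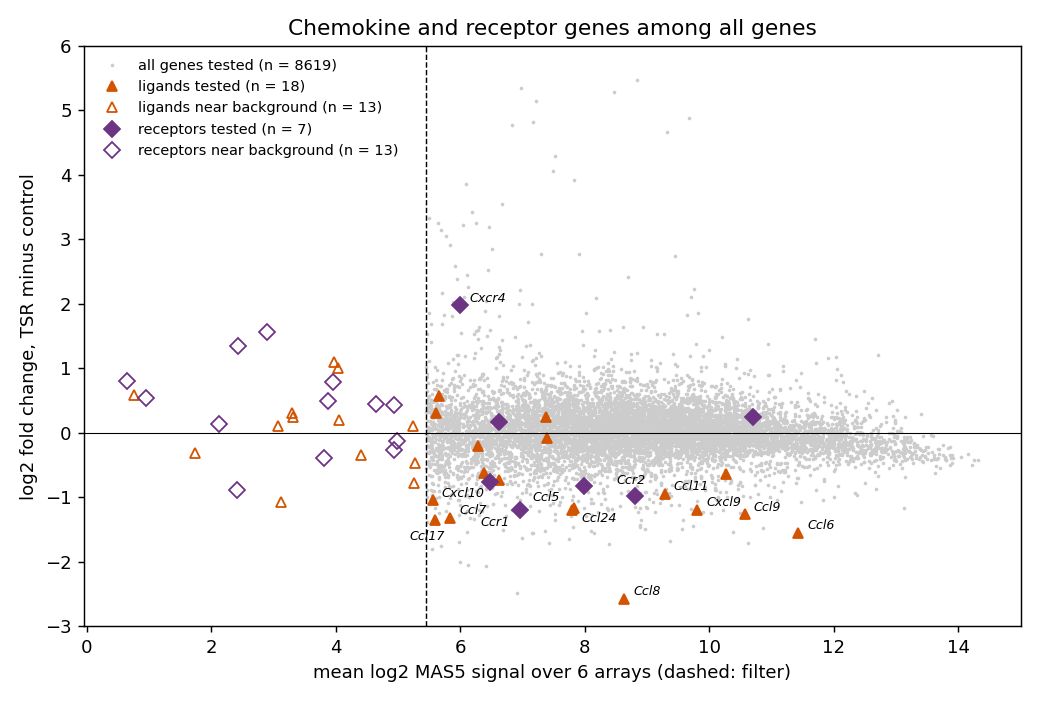
Log2 fold change (TSR minus control) against mean log2 MAS5 signal over 6 arrays, for all genes tested (grey), ligands (triangles) and receptors (diamonds), with open symbols for members near background left of the dashed filter line. Ccl8 has the lowest value among the genes that passed the filter (-2.57), and Cxcr4 (1.98), near background in control samples, is the highest of the receptors tested.

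In the same arrays, several lists of leukocyte markers were lower and others were not, and in whole tissue fewer cells of a type and less RNA per cell cannot be told apart. The counts below stand against 23.0% lower and 24.0% higher over all genes tested. Of 13 tested macrophage markers 11 were lower after TSR (median log2 fold change -0.52) and 2 did not pass. Their summed signal was between 15005 and 15187 in TSR arrays and between 21809 and 22484 in control arrays. Cd68 and Mrc1, defining genes of macrophages, changed by -0.65 and -0.95. Of the other leukocyte lists, dendritic cell markers counted 5 of 6 lower, NK cell markers 4 of 5 and neutrophil markers 3 of 4. Of the lower neutrophil genes, Camp had all TSR arrays below the 35th percentile and passed the filter through the control group. S100a9 had 2 of 3 TSR arrays below it. The neutrophil gene Ltf, near background, went the other way, with 32.9, 19.4 and 23.6 in TSR and 7.59, 11.4 and 6.48 in control samples. Ltf passed in limma without the filter (adjusted p = 0.025), while the groups overlapped in Ngp and Mmp8. Among 3 tested B cell markers 2 were higher (median 0.67) and 0 were lower, and 3 more were near background. The 2 higher ones, Ms4a1 and Cd22, each had 2 of 3 control arrays below the 35th percentile. Cd22 did not pass in limma without the filter (adjusted p = 0.11). Of the eosinophil and mast cell markers 4 were tested, the mast cell genes Cpa3, Mcpt4, Cma1 and Kit. Of these 1 was higher (Kit, 0.89) and 0 were lower (median 0.28). The eosinophil genes Siglecf, Epx and Prg2 were near background. Siglecf had signals of 1.83 to 9.45 in TSR and 14.2 to 27.1 in control samples, while the groups overlapped in Epx and Prg2. Only 2 of 10 T cell markers passed the filter, of which Cd2 was lower (-0.71). Cd3e, Cd3d and Cd3g, the chains that define T cells, were near background, and Cd3d had signals of 7.53 to 28.0 in TSR and 64.5 to 66.6 in control samples. Endothelial markers counted 3 higher and 3 lower of 9. Of 6 adipocyte markers 4 were lower, among them Adipoq (-0.46), and 2 were higher. Hepatocyte markers, which WAT should lack, were higher in 8 of 8 tested genes. Their summed signal was 11239 to 11709 in TSR and 416 to 475 in control arrays. Among the 8, Fabp1, Apob and Cps1 had all control arrays below the 35th percentile, so that they passed the filter through the TSR group. The 4 measured markers of the epididymis were all near background. Of these, Adam7 had 46.4, 31.8 and 35.7 in TSR and 3.68, 8.90 and 15.9 in control samples. It passed in limma without the filter (adjusted p = 0.022), while the groups overlapped in Lcn5, Gpx5 and Lcn8. As a sign of RNA and labelling quality, the log2 difference between 5′ and 3′ probe sets of beta-actin was -0.67 ± 0.0013 in TSR and -1.22 ± 0.012 in control samples (SD, n = 3 each), with p = 0.1 in a two-sided exact permutation test, which cannot give less with 3 arrays a group. The part of these shifts in the chemokine values was not tested.

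**Figure D2:**
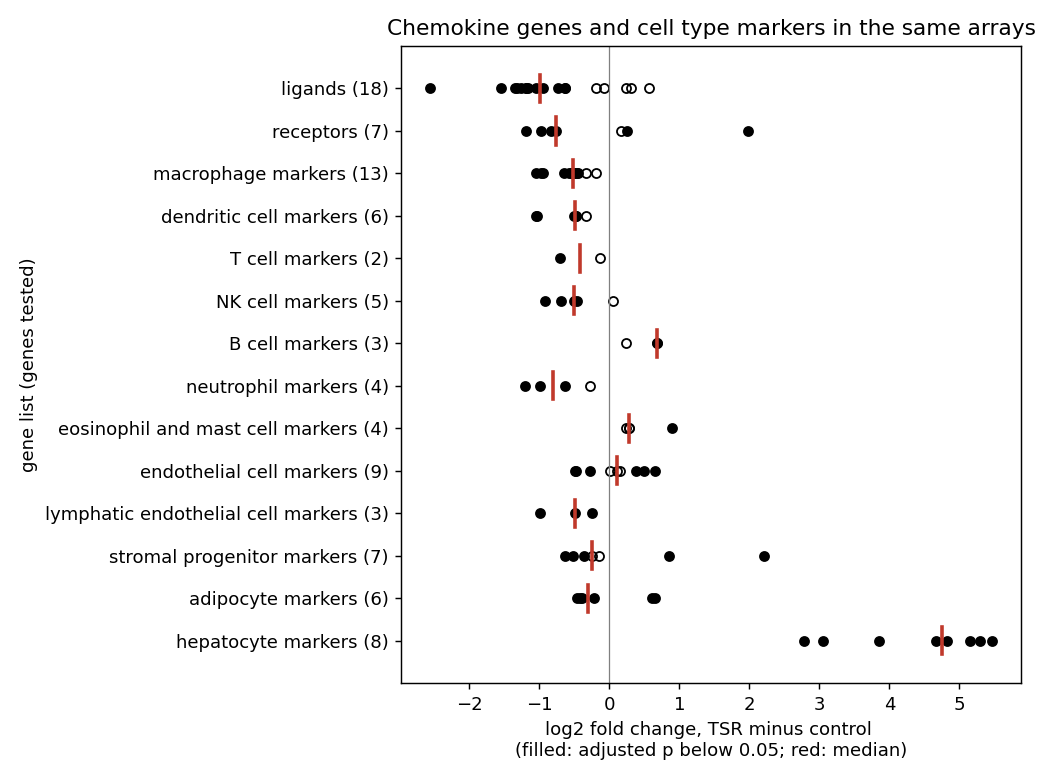
Log2 fold change (TSR minus control) of each tested gene of the chemokine ligands, the receptors and 12 lists of cell type markers, with filled points for adjusted p below 0.05 and a red line at the median. The median was -0.99 for ligands, -0.76 for receptors and -0.52 for macrophage markers, and the lowest hepatocyte marker was at 2.78.

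Many chemokine genes lie side by side in the mouse genome (RefSeq order of protein-coding genes, GRCm38.p6, members at most 3 positions apart). On chromosome 11, one run holds Ccl2, Ccl7, Ccl11, Ccl12, Ccl8 and Ccl1, of which 5 were tested and 5 fell. A second run on chromosome 11 holds Ccl5, Ccl9, Ccl6, Ccl3 and Ccl4, of which 3 of 4 tested genes fell. On chromosome 5 the neighbours Cxcl9 and Cxcl10 both fell, while Cxcl1, Cxcl2 and Cxcl15 of another run were near background. The receptor genes Ccr1 and Ccr2, which also fell, lie in one run on chromosome 9 with Ccr3, Ccr9 and Cxcr6, which were near background. On chromosome 8, Ccl17 fell, while its neighbour Cx3cl1 did not pass and Ccl22 was near background. In these counts Ccl7, Cxcl10 and Ccl17 passed the filter through the control group, in which they were high. Over all genes tested 23.0% were lower, and whether neighbours changed together was not tested.

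Promoter sequences were found in RefSeq (GRCm38.p6) for 12 of the 17 genes that fell. The 250 bases before the start site were searched on both strands for the letters of 5 motifs. These were NF-kB (GGG, any 5 bases, CC), the interferon-stimulated response element or ISRE (GAAA, any 2 bases, GAAA), the gamma-activated site (TTC, any 3 bases, GAA), its STAT6 form with 4 bases between, and AP-1 (TGANTCA). NF-kB letters were found in 6 of the 12 genes (Ccl9, Cxcl9, Cxcl10, Cxcl12, Ccr1 and Cxcr3), against 45.8% of all 32851 promoters of the same length. The ISRE letters were found only in Cxcl10 of the 12 genes (2.98% of all promoters) and both the gamma-activated site (7.02%) and its STAT6 form (5.85%) only in Ccl17. AP-1 letters were found in Ccl9 and Cxcl10 (6.75% of all promoters). These matches describe letters and not bound sites. The sequences shown are those of the neighbours Cxcl10 and Cxcl9, of Ccl8, the lowest log2 fold change among the members tested, and of Cxcr4, which rose. Capitals mark NF-kB and ISRE letters, and overlapping NF-kB matches are joined. No such letters lie in these windows of Ccl8 and Cxcr4.
Cxcl10 (chr5:92348890-92349139, minus strand): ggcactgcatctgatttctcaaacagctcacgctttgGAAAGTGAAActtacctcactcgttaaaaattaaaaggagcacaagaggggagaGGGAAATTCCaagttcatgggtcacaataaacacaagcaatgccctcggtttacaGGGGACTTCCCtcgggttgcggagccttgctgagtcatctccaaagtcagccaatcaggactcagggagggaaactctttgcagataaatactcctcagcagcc
Cxcl9 (chr5:92328080-92328329, minus strand): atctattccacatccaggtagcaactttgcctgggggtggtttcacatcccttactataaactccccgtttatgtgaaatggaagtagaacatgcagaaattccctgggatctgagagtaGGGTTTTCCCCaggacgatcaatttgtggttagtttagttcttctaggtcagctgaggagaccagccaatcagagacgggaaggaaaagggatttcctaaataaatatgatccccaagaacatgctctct
Ccl8 (chr11:82114935-82115184, plus strand): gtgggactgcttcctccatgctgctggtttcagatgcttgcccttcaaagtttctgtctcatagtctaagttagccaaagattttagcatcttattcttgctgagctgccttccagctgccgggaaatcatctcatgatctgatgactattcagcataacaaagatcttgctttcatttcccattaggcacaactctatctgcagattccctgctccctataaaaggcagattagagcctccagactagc
Cxcr4 (chr1:128592300-128592549, minus strand): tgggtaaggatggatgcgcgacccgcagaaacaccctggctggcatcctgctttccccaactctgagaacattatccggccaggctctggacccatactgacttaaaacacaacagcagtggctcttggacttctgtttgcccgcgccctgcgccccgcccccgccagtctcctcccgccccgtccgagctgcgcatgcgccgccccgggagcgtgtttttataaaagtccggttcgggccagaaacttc

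In Cxcl10 the ISRE letters begin 213 bases before the start site, followed by the NF-kB letters, of which the first begin 159 bases before it. In Cxcl9 they begin 130 bases before the start site. Beside these sequences, Cxcl9 and Cxcl10 changed by -1.19 and -1.04 on the log2 scale, Ccl8 by -2.57 and Cxcr4 by 1.98.

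Among the ligands of monocytes and macrophages, Ccl8 changed most. In mouse it encodes a ligand of the receptor CCR8. Its signal was 165, 151 and 173 in TSR samples, against 989, 988 and 924 in control samples. The groups lay far apart, and the mean was 5.93-fold lower in TSR samples, or -2.57 as log2 fold change (standard error 0.07, adjusted p = 6.0e-08), the largest fall among the 8619 genes that passed the filter, while genes below it were not ranked. Ccl6 and Ccl9, both ligands of CCR1, fell with little spread within a group. For Ccl6 the signals were 1529.6, 1686 and 1628 in TSR samples and 4758, 4589 and 4847 in control samples (log2 fold change -1.55, standard error 0.05), and its other probe set changed by -1.56. For Ccl9 they were 960.2, 978 and 999 in TSR samples and 2365, 2349 and 2349 in control samples (-1.27, standard error 0.04), with -0.97 by its other probe set. All TSR samples lay below all control samples in each of these 4 Ccl6 and Ccl9 probe sets.

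The ligands of CCR2, which draw monocytes out of the blood, were lower as well. Ccl2 had 63.6, 65.5 and 72.1 in TSR samples and 114, 99.1 and 98.2 in control samples (log2 fold change -0.63, adjusted p = 0.0054). Ccl12, a mouse relative of Ccl2, had 76.7, 75.2 and 77.6 in TSR samples and 122, 133 and 128 in control samples (-0.74). In both genes the groups did not overlap. Ccl7 had 27.1, 39.6 and 44.4 in TSR samples, which all lay under the 35th percentile, and 87.1, 75.3 and 112 in control samples (-1.31, adjusted p = 0.0020). Ccl5, which encodes RANTES and is made by T and NK cells among others, had 129.8, 150.3 and 163 in TSR samples and 352, 332 and 329 in control samples (-1.20, adjusted p = 2.9e-05). Of the tested CC ligands only Ccl4, which encodes a macrophage inflammatory protein, did not pass, with 71.2 to 73.9 in TSR samples and 61.9 to 105 in control samples (adjusted p = 0.44).

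The eotaxins, which attract eosinophils through CCR3, fell as well. Ccl11 had 411, 424 and 518 in TSR samples and 895, 868 and 832 in control samples (log2 fold change -0.95, standard error 0.09, adjusted p = 4.8e-05). Ccl24 had 139.5, 169 and 149 in TSR samples and 357, 324 and 342 in control samples (-1.16, standard error 0.10, adjusted p = 2.5e-05). Neither gene had a TSR sample within the control range. Ccl17, a ligand of CCR4 on T cells, had 29.4, 23.3 and 40.4 in TSR samples, below the 35th percentile, and 91.6, 78.7 and 63.1 in control samples (-1.35, adjusted p = 0.0023).

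Of the CXC ligands, 3 of 6 tested fell. Cxcl9, an interferon-gamma target that attracts T and NK cells through CXCR3, had 571, 618 and 588 in TSR samples and 1388, 1347 and 1325 in control samples (log2 fold change -1.19, standard error 0.05, adjusted p = 6.2e-07). Cxcl10, a second CXCR3 ligand, had 31.8, 31.2 and 35.7 in TSR samples and 60.7, 80.3 and 63.6 in control samples (-1.04, adjusted p = 0.0021). Both genes fell without overlap, but the TSR signals of Cxcl10 were below the 35th percentile. Cxcl12, a homeostatic chemokine of stromal cells that retains stem cells and leukocytes through CXCR4, fell less, to 1007, 1054 and 921 in TSR samples, against 1585, 1629.5 and 1411 in control samples (-0.63, adjusted p = 1.4e-04). Its other probe set changed by -0.59.

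A further 4 ligands did not pass. Cxcl13, which attracts B cells through CXCR5, had 184, 162 and 195 in TSR samples and 147, 152 and 159 in control samples (log2 fold change 0.24, adjusted p = 0.090). Cxcl14 had 66.8, 58.4 and 59.7 in TSR samples and 39.2, 53.4 and 34.5 in control samples (0.57, adjusted p = 0.051). In these brightest probe sets, all TSR samples of both genes lay above the control samples, without passing the test. For Cxcl14, 2 of 3 control arrays lay below the 35th percentile. Its other probe set, which was near background, changed by -0.12 with overlapping groups. The call of Cxcl14 lay at the threshold and depended on the arrays and the setting. Without control replicate 2 its log2 fold change was 0.74 (adjusted p = 0.018). With all arrays it also passed in limma without the intensity trend and with the floor at the 25th percentile. Cx3cl1, a membrane-bound chemokine of endothelial cells and neurons, had 0.31 with overlapping groups (adjusted p = 0.22). The probe sets of Cxcl16, a transmembrane chemokine and scavenger receptor, disagreed, as the brighter one changed by -0.08 (adjusted p = 0.66) and the dimmer one by -0.57 (adjusted p = 0.0080). Of 6 member genes with more than 1 tested probe set, it was the only one whose calls differed.

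**Figure D3:**
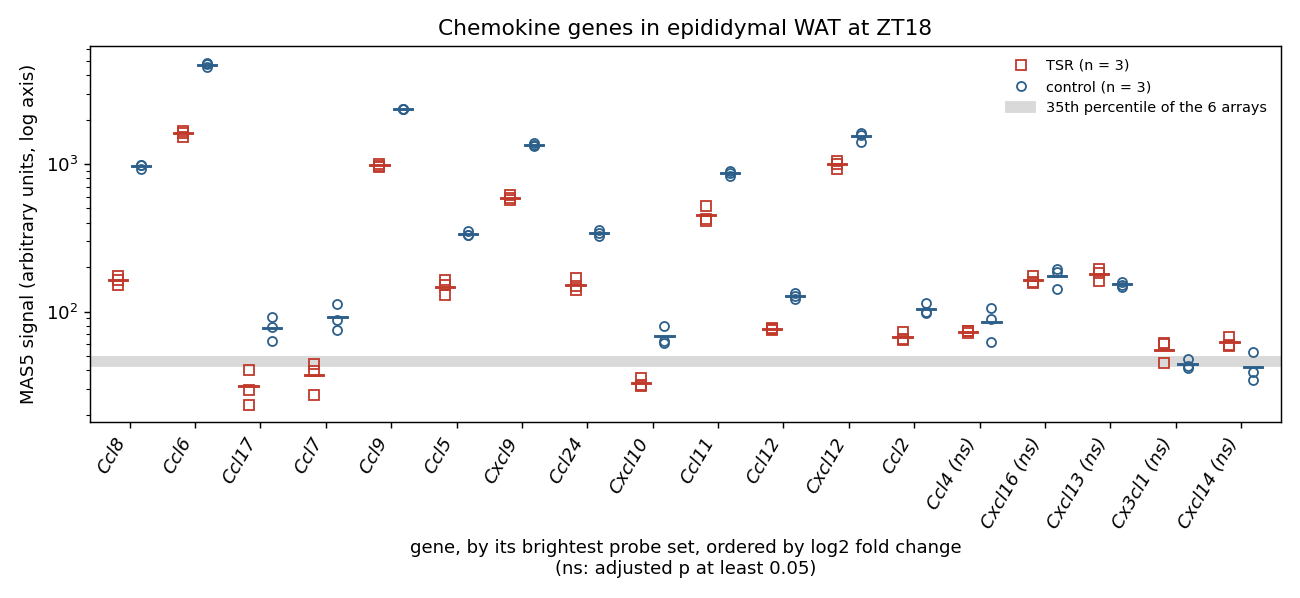
MAS5 signal (log axis) of the 18 tested ligand genes in 3 TSR samples (squares) and 3 control samples (circles), with group means as lines and a grey band for the 35th percentiles of the arrays. From Ccl8 to Ccl2 the TSR samples lie below the control samples, and Ccl7, Ccl17 and Cxcl10 reach the band or lie under it after TSR.

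Among the signalling receptors, 3 fell. Ccr1, the receptor of CCL5, CCL6 and CCL9 on myeloid cells, had 96.4, 75.4 and 77.5 in TSR samples and 185, 187 and 194 in control samples (log2 fold change -1.19, standard error 0.13, adjusted p = 1.1e-04). Ccr2, the receptor of CCL2, CCL7 and CCL12 on monocytes, had 307, 295 and 355 in TSR samples and 594, 625 and 671 in control samples (-0.98, standard error 0.08, adjusted p = 3.1e-05), and a further probe set changed by -0.77. Cxcr3, the receptor of CXCL9 and CXCL10 on activated T and NK cells, had 80.9, 60.2 and 65.8 in TSR samples and 126, 115 and 109 in control samples (-0.76, adjusted p = 0.0034). In these 3 pairings the receptor and its ligands were lower in the same arrays. Ackr1, an atypical receptor of venular endothelium and red cells that carries many CC and CXC chemokines, had 177, 186 and 209 in TSR samples and 357, 348 and 311 in control samples (-0.83, adjusted p = 1.5e-04). All 4 of these genes had every TSR sample below the control samples.

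The receptors of CXCL12 went the other way. Cxcr4, its signalling receptor, had 129, 112 and 141 in TSR samples and 45.7, 27.7 and 26.6 in control samples, a ratio of means of 3.83 (log2 fold change 1.98, standard error 0.23, adjusted p = 1.8e-04). No other tested member rose by 2-fold. Its control signals were all below the 35th percentile of their arrays, so that the fold rests on values near background. Ackr3, an atypical receptor that scavenges CXCL12, had 1872, 1697 and 1866 in TSR samples and 1529.95, 1587 and 1450.4 in control samples (0.25, standard error 0.06, adjusted p = 0.0059). This rise was small and depended on the scaling between arrays, for after median centring, which moved the median of all tested probe sets from 0.04 to -0.07, it was 0.14 with adjusted p = 0.065. Cxcl12 itself was lower, as given above. Ccrl2, which binds the chemoattractant chemerin without signalling, had 98.2, 98.8 and 118 in TSR samples and 91.1, 87.1 and 103 in control samples, with overlapping groups (0.16, adjusted p = 0.35).

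**Figure D4:**
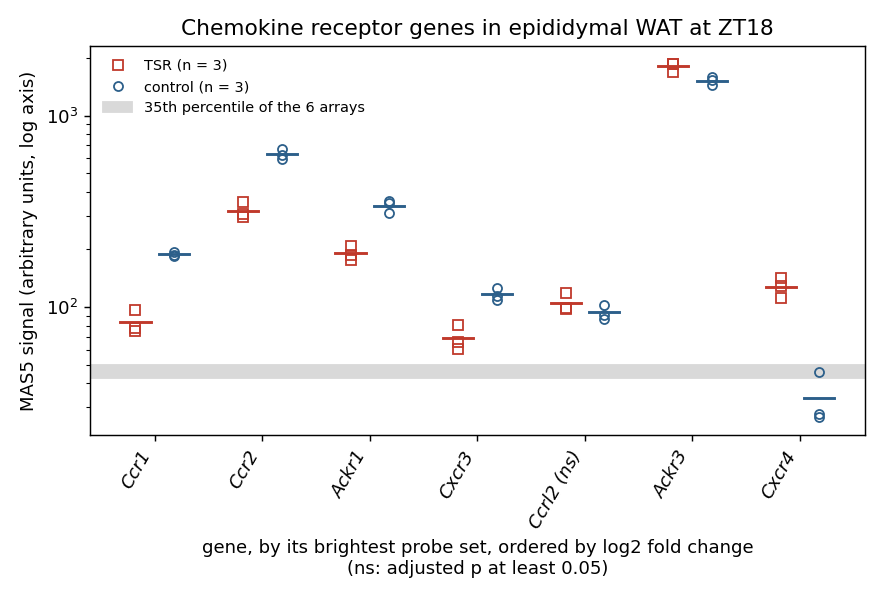
MAS5 signal (log axis) of the 7 tested receptor genes in 3 TSR samples (squares) and 3 control samples (circles), with group means as lines and a grey band for the 35th percentiles of the arrays. Ccr1, Ccr2, Ackr1 and Cxcr3 are lower and Ackr3 and Cxcr4 higher after TSR, and the control samples of Cxcr4 lie at or under the band.

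Across the 25 tested genes, every TSR sample lay below every control sample in 17 (background 27.6% of all genes tested) and above in 4 (background 29.3%), and the groups overlapped in 4. The 17 genes were the 13 ligands and 4 receptors called lower, or 10 ligands and 4 receptors without a dim group. Those above were Ackr3 and Cxcr4, which passed the test, and Cxcl13 and Cxcl14, which did not.

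The 26 genes near background were as many ligands as receptors, 13 of each. The ligands were Ccl1, Ccl3, Ccl20, Ccl22, Ccl25, Ccl28, Cxcl1, Cxcl2, Cxcl5, Cxcl11, Cxcl15, Cxcl17 and Xcl1, with signals from 1 to 60.7. The receptors were Ackr2, Ackr4, Ccr3, Ccr4, Ccr6, Ccr7, Ccr8, Ccr9, Ccr10, Cx3cr1, Cxcr2, Cxcr5 and Cxcr6, with signals from 1 to 49.8. The groups overlapped in 11 of these ligands and 12 of these receptors. Xcl1, which attracts cross-presenting dendritic cells, had 29.9, 23.0 and 36.1 in TSR samples and 56.6, 47.5 and 47.1 in control samples. Cxcl1, a neutrophil chemokine, had 39.5, 26.5 and 33.9 in TSR samples and 46.2, 48.7 and 41.8 in control samples. Neither passed in limma without the filter (adjusted p = 0.064 for Xcl1 and 0.22 for Cxcl1), and 0 of the 26 genes did. The receptors of several ligands that fell were thus near background, namely Ccr3 for the eotaxins, Ccr4 for CCL17 and Ccr8 for CCL8, and could not be set beside their ligands. The same held for Cxcr6, the receptor gene of CXCL16, and for Cxcr5, the receptor gene of CXCL13.

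Of 12 tested chemokine-like and related genes that the naming rule leaves out, 6 were lower, 0 were higher and 6 did not pass, against 23.0% lower over all genes. Not all of the 12 encode ligands, and those lower were Pf4, Cklf, Cmtm3, Rarres2, Gpr182 and Cd74. Pf4, a CXC chemokine of platelets and macrophages, had 1530.01, 1552 and 1464 in TSR samples and 3031, 3110.5 and 3225 in control samples (log2 fold change -1.04, adjusted p = 7.3e-07). The probe set shared by the Ccl21 genes, lymphatic ligands of CCR7 that the array cannot tell apart, had 402, 377 and 416 in TSR samples and 1342, 1423 and 1438 in control samples (-1.81, adjusted p = 1.2e-07). The probe set shared by Ccl19 and its copies changed by -0.95. Probe sets shared by the Ccl27 genes did not pass (-0.14 and -0.07), nor did that of Ccl27a alone (-0.22, adjusted p = 0.052). Shared probe sets were not among the 12 genes counted. Of the markers of lymphatic endothelium, 3 of 3 tested were lower, against 23.0% over all genes. Lyve1, which macrophages also express, changed by -0.99, Pdpn by -0.49 and Flt4 by -0.25, while Prox1 was near background. Cklf, a chemokine-like factor, changed by -0.64.

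Genes of leukocyte adhesion at the vessel wall counted 6 lower and 2 higher of 14 tested, against 23.0% and 24.0% over all genes. Vcam1, the endothelial ligand of the integrin VLA-4, had 152, 173 and 160.3 in TSR samples and 538, 396 and 475 in control samples (log2 fold change -1.53, adjusted p = 1.5e-05). Icam1 changed by -0.85 and Selp, which encodes P-selectin, by -0.62, whereas Itgb1, an integrin chain found in most cells, rose by 0.50 in its brightest probe set, while its other tested probe sets (0.17 and 0.27) did not pass. Of 18 tested inflammatory inducers and their pathway genes 7 were lower and 3 higher, against the same shares. Il4ra, a chain of the interleukin-4 receptor, Irf1, an interferon-gamma target, and Nfkbia, an NF-kB target, changed by -0.60 each, and Ifngr2, a chain of the interferon-gamma receptor, by 1.32 in one probe set and by 0.00, without passing, in the other. The cytokine genes Tnf, Il1b, Il6 and Ifng were near background.

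Of 28 tested genes that carry the chemokine signal inside the cell, 8 were lower, 6 were higher and 14 did not pass, near the shares over all genes (23.0% lower and 24.0% higher), with a median log2 fold change of -0.07. Dock2, a Rac activator of leukocytes, changed by -0.68 (adjusted p = 0.0012). Gng2, a G protein gamma subunit, changed by -0.63, with all TSR arrays (41.3 to 46.8) below the 35th percentile and control arrays at 59.2 to 74.3. Grk6, a kinase that phosphorylates activated receptors such as CXCR4, rose by 0.44, and the kinase gene Jak3 by 0.63. The probe sets of the ubiquitous G protein gene Gnai2 disagreed, with -0.14 in the brighter and 0.42 in the dimmer one, and both passed.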

How the data were processed

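RNA of epididymal WAT was hybridised to Affymetrix mouse arrays, 3 for TSR and 3 for control. The deposited values are linear intensities, made by the authors with the MAS5 algorithm of Expression Console (version not given in the sources used here) and scaled per array. The labels state freezing in liquid nitrogen and Trizol, and the paper RNAlater and a column kit.

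Of 22690 probe sets, 20393 had 1 gene symbol, 691 several and 1606 none, and 20364 Entrez identifiers were found in RefSeq. After log2 transformation, 64 control probe sets were removed, as was every other one with a mean log2 signal below 5.45, the lowest 35%. The remaining 14707 were compared with limma 3.58.1 in R 4.3.3 (eBayes with intensity trend, 4.86 prior degrees of freedom), two-sided, with Benjamini-Hochberg adjustment and a threshold of 0.05. A log2 fold change is the mean log2 signal of TSR minus that of control, and a ratio is that of the mean signals. The median SD within a group was 0.10 (log2). With 3 arrays a group, their number limits the precision. The computation was tested on simulated data.

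Members were grouped as ligands and receptors. Genes were named with the value of every array where they passed the test with a ratio of means of at least 1.5 in either direction, or form a pair with such a gene. Other members and genes of the lists were given by counts and examples. Ccl4, Cxcl13, Cxcl14, Ccrl2, Xcl1, Cxcl1, Gnai2, Ccl19 and the Ccl21 probe set were given with values after these had been seen. The same holds for the Ccl27 probe sets, Siglecf, Ltf, Ms4a1, Cd22, Adam7, Pdpn and Flt4. Members and lists were chosen with earlier results of these data known, and no test was made over lists. Alternatives were the methods' t-test, limma without the trend, other scalings, filters and a floor, the replicate number as a block, averaging the probe sets of a gene, and each array left out in turn.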

Additional observations from a re-analysis of the deposited data

How the results depend on the processing

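Of the 19 member genes called, all 19 kept call and direction with the methods' t-test on linear or log2 signals, limma without the trend, quantile normalization, no filter, the floor at the 25th percentile, each of the 6 arrays left out in turn, and probe sets averaged per gene. Median centring lost Ackr3, leaving 1 receptor higher. Leaving out the lowest 50% of probe sets took Ccl2, Ccl7, Ccl12, Ccl17, Cxcl10, Ccr1, Cxcr3 and Cxcr4 out of the test, so that 8 ligands lower, 2 receptors lower and 1 receptor higher were counted, and the other 11 genes kept their calls. Cxcl14 passed as the 1 ligand higher without the intensity trend, with the floor, in the fit with probe sets averaged per gene and without control replicate 2. Leaving out single arrays thus gave between 0 and 1 ligands higher. In the averaged fit Cxcl14 still rested on 1 probe set, since its other one was near background and left out. Without genes dim in one group, a count added after the data were seen, 10 ligands lower, 4 receptors lower and 1 receptor higher were counted. By the mean of its probe sets, Cxcl16 also passed, as lower. Without control replicate 2 its brighter probe set had a log2 fold change of 0.0095, against -0.08 with all arrays and -0.22 without control replicate 3. Whether the replicate numbers of the labels pair the samples cannot be told from 3 arrays a group. The deviations of samples with the same number correlated with r = 0.015, 0.19 and 0.18. For TSR replicates 2 and 3, but not 1, the control of the same number correlated best. With the replicate block the counts stayed at 13 ligands lower, 4 receptors lower and 2 receptors higher. Signals near the 35th percentile limit what can be said of Ccl7, Ccl17, Cxcl10 and the control level of Cxcr4, and for the 26 genes below the filter a difference was not detectable.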
